A study of Mus musculus with 14 samples.

Results

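The genes for mitochondrial ribosomal proteins, whose mouse symbols begin with Mrpl (48 genes) or Mrps (29 genes), were followed in plantaris muscle over 14 days of overload. The 77 members were all genes whose probe set carried a single symbol of that form, out of 19938 genes measured on the array, and the brightest probe set stood for a gene that had several. Membership rested on the name alone. Mitochondria keep a small genome that encodes core subunits of the respiratory chain, and they translate it on a ribosome of their own. The RNA of that ribosome is made inside the mitochondrion, whereas every one of its proteins is encoded in the nucleus, translated in the cytosol and imported. Part of these proteins have counterparts in the bacterial ribosome and the others are found in mitochondria only. In skeletal muscle fibres, which are rich in mitochondria, the amounts of this ribosome and of the respiratory chain are both tied to oxidative capacity.

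The study followed hypertrophy of the plantaris, a hindlimb muscle, after its synergist muscles were surgically removed so that it carried their load. All animals were male C57BL/6J mice, an inbred strain, aged 5 months. RNA was taken at day 0, 1, 3, 5, 7, 10 and 14, and at each of these 7 days 1 Affymetrix Mouse Gene 1.0 ST array was hybridised with a pool of the right muscles and 1 with a pool of the left muscles of 6 animals, which gave 14 arrays. Whether both pools of 1 day share animals is not in the labels, so p-values measure the spread between pools. No sham-operated group was among the samples, and day 0 served as the baseline. Values are log2 of the deposited intensity, differences are between day means (n = 2 pools at each day) with their standard error, and a gene is called changed at a Benjamini-Hochberg adjusted p under 0.05 over all 19938 genes in 1 limma fit of all arrays.

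Medians of the 14 arrays over all 35556 probe sets lay between 242.8 and 254.9 intensity units. Equal array medians, a setting used below, refers to the median over the 19938 genes, made the same on every array. Right and left pools differed for 0 of 77 members and for 0.00% of all genes, with 2 members and, among all genes, 394 higher and 192 lower on the right at an unadjusted p under 0.05. Genes of hepatocytes, which muscle should not express, stood apart on 2 arrays, the left pool at day 0 and the right at day 1, with summed intensities of 63937 and 64893 over 10 markers against 15985 and 22500 in the other pools of those days and 3441 to 33457 on the remaining arrays. With both of these arrays left out, 57, 52, 58, 59, 58 and 46 members were lower than at day 0 on days 1, 3, 5, 7, 10 and 14, in place of 65, 56, 59, 63, 60 and 49 with all arrays. The fibre genes Acta1, Ckm and Mb, which mark the labelled tissue, had mean log2 intensities of 14.39, 14.30 and 13.94 at day 0. The array is bulk tissue, so fewer cells of a type and less RNA per cell cannot be told apart.

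Most mitochondrial ribosomal protein genes were lower within 1 day of overload and were still lower at day 14. At day 1, 65 of the 77 were lower than at day 0 and 1 was higher, where 34.7% of all genes were lower and 20.3% higher. At day 3, 56 were lower and 1 higher, where 23.4% of all genes were lower and 24.2% higher. At day 5 the count was 59 lower and 1 higher, with 38.1% of all genes lower and 27.0% higher. At day 7, 63 members were lower, and at day 10 there were 60, where 37.8% and 27.5% of all genes were lower. At day 14, 49 remained below day 0 by this test, where 20.7% of all genes were lower. No member was called higher at day 7, 10 or 14 by limma, nor at an unadjusted p under 0.05, while 28.5%, 23.6% and 21.4% of all genes were higher at these days.

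Falls past 2-fold were few, and most members moved by less. The median log2 difference of the 77 members from day 0 on days 1, 3, 5, 7, 10 and 14 was -0.511, -0.420, -0.449, -0.471, -0.438 and -0.365. Over all genes the medians were -0.144, -0.066, -0.162, -0.147, -0.113 and -0.080. A fall past 1.5-fold was reached by 29 members at day 1, 33 at day 7 and 14 at day 14, and a fall past 2-fold by 2, 6 and 0. The arrays themselves separated: both pools lay below both day 0 pools for 74, 66, 69, 72, 69 and 73 members on days 1, 3, 5, 7, 10 and 14. This held for 50.3%, 40.0%, 52.5%, 50.9%, 48.3% and 42.0% of all genes. The plot of each member's change by day shows this shift of nearly the whole family with few points above 0.

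**Figure D1:**
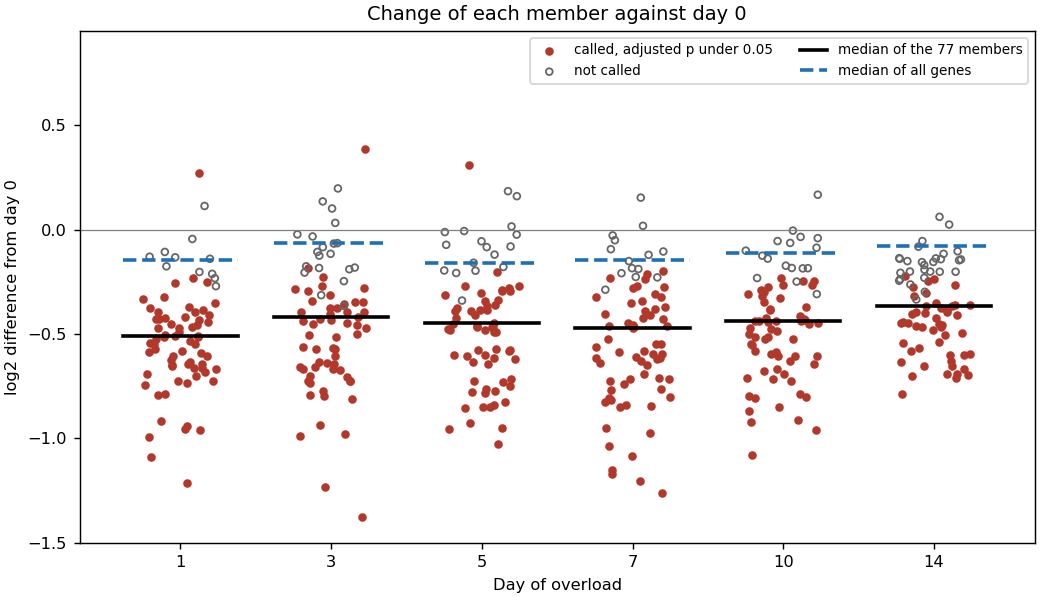
Log2 difference from day 0 (vertical axis) of each of the 77 mitochondrial ribosomal protein genes at the 6 later days of overload (horizontal axis); filled points are called at an adjusted p under 0.05 and open points are not, solid bars are the median of the members and dashed bars the median of all 19938 genes. The member median sits at -0.511 at day 1 and -0.365 at day 14, below the all-gene median at each day, and 1 member is called higher at each of days 1, 3 and 5.

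Taking the time course gene by gene, 68 of the 77 members changed by the moderated F test over the 6 days, against 71.3% of all genes. Lower at all 6 days were 40 members, 14 were lower at 5 days, 17 at 1 to 4 days and 6 at none. The day 0 mean was the highest of the 7 day means in 69 members. The lowest mean fell at day 1 in 32 members, at day 7 in 23 and at day 3 in 12. Across members the change at day 7 was nearly unrelated to the mean intensity of the probe set (Pearson r = -0.051, Spearman rho = -0.082 over 77 genes on shared arrays, given as a description).

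**Figure D2:**
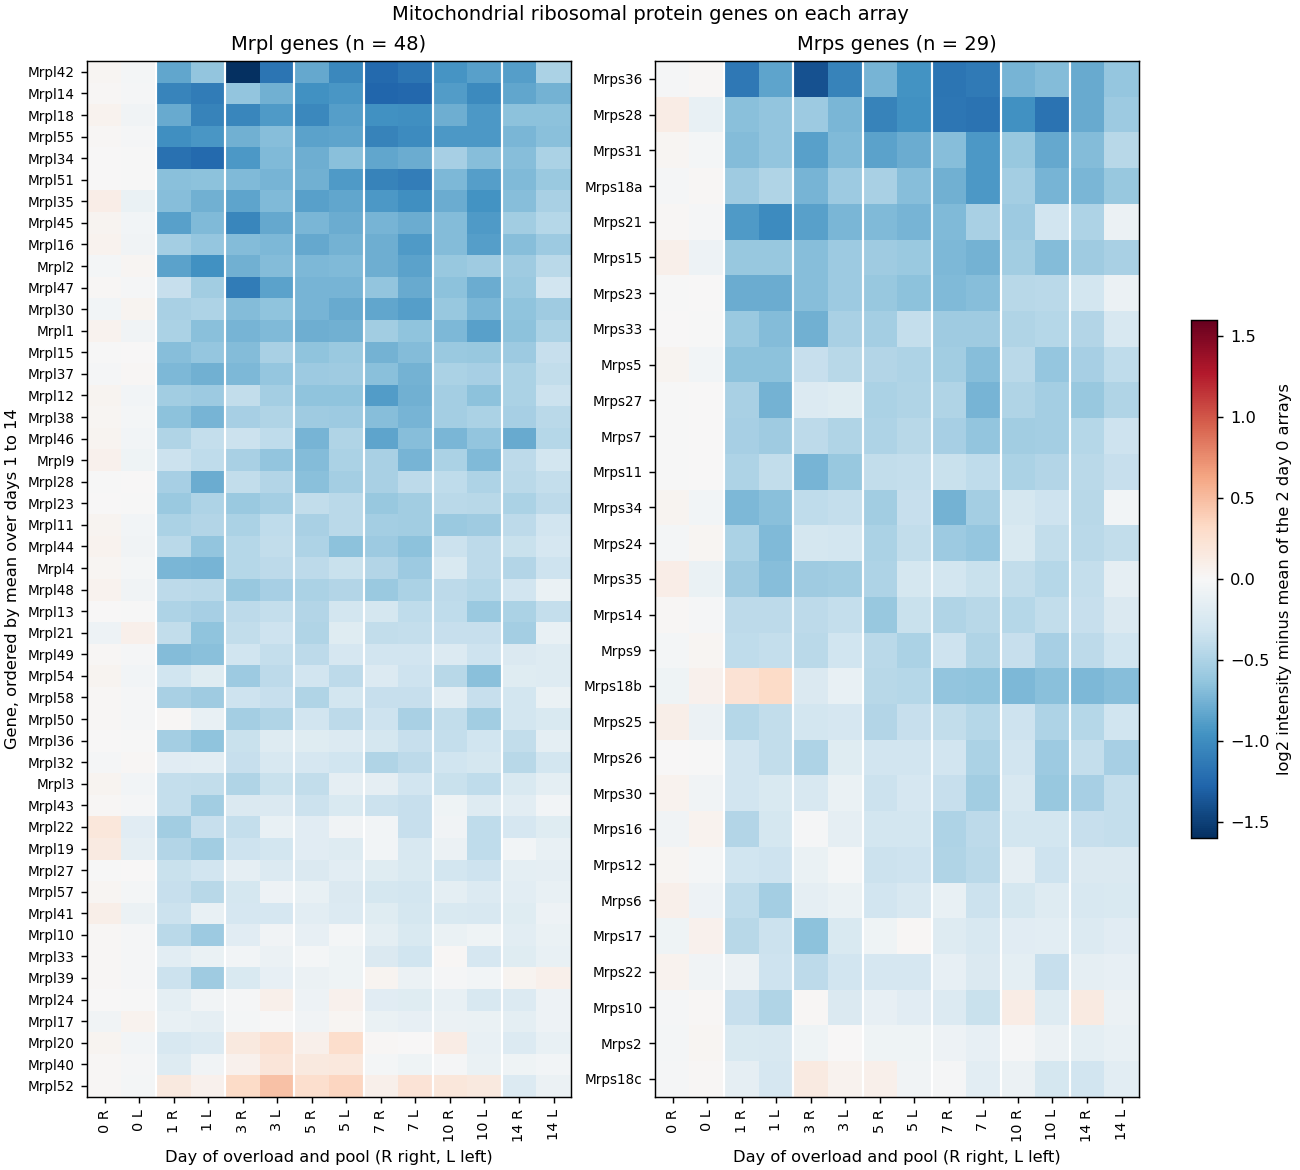
Log2 intensity of each member on each of the 14 arrays, minus the mean of the 2 day 0 arrays, for the 48 Mrpl genes (left) and the 29 Mrps genes (right), with days and pools (R right, L left) along the horizontal axis and genes ordered by their mean over days 1 to 14. Blue cells, below day 0, fill most rows from day 1 on, and the bottom rows of the Mrpl panel, with Mrpl52 last, hold most of the red cells.

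Markers of muscle fibres and of other cells moved over the same days. The summed intensity of 10 muscle fibre markers was 170878 and 172663 (right and left) on day 0, 144208 and 150249 on day 1, 109798 and 110728 on day 3, 98245 and 107582 on day 7 and 157625 and 160866 on day 14. Of these 10 markers 4, 10, 10 and 2 were lower on days 1, 3, 7 and 14. The sum of 10 macrophage markers, which include Cd68 and Csf1r, was 5743 and 4804 on day 0, 24843 and 27067 on day 1, 35515 and 35466 on day 3 and 16116 and 17132 at day 14. The fibroblast sum over 10 genes was 20490 and 19165 at day 0 and 62111 and 63524 at day 14, and the proliferation sum over 9 genes was 2706 and 1896 at day 0 and 14914 and 13018 at day 7. The 10 neutrophil markers summed to 18888 and 22112 at day 1 and to between 2054 and 9138 on every other array. Only 5 of these 10 were called higher at day 1, and 0 were called lower. Adipocyte markers were lower over the same days as the members, with 7, 6, 8, 8, 6 and 4 of 9 lower on days 1, 3, 5, 7, 10 and 14 and medians of -0.552, -0.566, -0.798, -0.757, -0.699 and -0.522. Their sum was 9444 and 9713 on day 0 and 4534 and 5154 on day 7. Of 6 Schwann cell markers 5 were lower at day 1 (median -0.421), 4 at day 7 (median -0.450, with 1 higher) and 1 at day 14. Of 10 endothelial markers 5 were lower and 2 higher at day 1, and 3 were lower and 7 higher at day 7. At day 1 the fibre markers had a median difference of -0.184 and the ribosomal members one of -0.511, while at day 3 these were -0.583 and -0.420. The part of these cells in the change of the members was not tested.

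Both subunits took part. Of the 48 genes with Mrpl symbols 40, 36, 39 and 29 were lower on days 1, 3, 7 and 14, and of the 29 with Mrps symbols 25, 20, 24 and 20. The medians at day 7 were -0.496 and -0.465. The symbol is not always a guide to place, since the products of Mrps30 and Mrps18a sit in the large subunit. The Mrps36 product is now known as a component of the alpha-ketoglutarate dehydrogenase complex, an enzyme of the citrate cycle, and was kept here because it meets the naming rule. Among the 46 genes with bacterial counterparts 40 were lower at day 1 and 31 at day 14, with median differences of -0.510 and -0.370. Among the 28 found in mitochondria only the counts were 23 and 15, and the medians -0.501 and -0.264. Mrps18a, Mrps18b and Mrps36 were placed in neither class, and whether the classes differ was not tested.

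The stalk of the large subunit recruits translation factors, and its proteins are encoded by Mrpl10, Mrpl11 and Mrpl12. Log2 intensity of Mrpl12, whose product also binds the mitochondrial RNA polymerase, was 10.80 and 10.71 on day 0, 10.20 and 10.17 on day 1, 10.36 and 10.21 on day 3, 10.11 and 10.12 on day 5, 9.87 and 9.99 on day 7, 10.21 and 10.10 on day 10 and 10.25 and 10.41 on day 14. All later arrays lay below both day 0 arrays, and the pools of day 7 were the lowest. Mrpl12 fell by 0.57 ± 0.09 at day 1 and 0.83 ± 0.09 at day 7 (adjusted p = 6.91e-06). Mrpl11 was likewise lower at every day, with differences from -0.58 to -0.36. Mrpl10 read 11.17 and 11.13 on day 0, 10.72 and 10.57 on day 1, 10.98 and 11.10 on day 3, 11.02 and 11.13 on day 5, 10.99 and 10.91 on day 7, 11.05 and 11.09 on day 10 and 10.98 and 11.05 on day 14. It was lowest on both pools of day 1 and nearer to day 0 afterwards, with a difference of -0.51 ± 0.08 at day 1 (adjusted p = 0.000226) and of -0.08 ± 0.08 at day 5 (adjusted p = 0.374), and it was called lower again at day 7 (-0.20 ± 0.08, adjusted p = 0.0429). It rose by 0.40 ± 0.08 from day 1 to day 3.

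The exit of the peptide tunnel faces the inner membrane, into which the new proteins are inserted. Of 8 genes for proteins around it, 6 were lower at day 1 and 4 at each later day. The 4 that were lower at day 7 were Mrpl23, Mrpl44, Mrpl45 and Mrpl47, while Mrpl17, Mrpl22, Mrpl24 and Mrpl39 were not called there. Mrpl45, whose product ties the ribosome to the membrane, read 9.96 and 9.89 on day 0, 9.06 and 9.22 on day 1, 8.88 and 9.10 on day 3, 9.19 and 9.13 on day 5, 9.18 and 9.13 on day 7, 9.23 and 9.01 on day 10 and 9.37 and 9.46 on day 14. Both pools of every later day were below day 0, with the lowest mean at day 3. Mrpl45 fell by 0.93 ± 0.10 at day 3 (adjusted p = 1.13e-05) and 0.51 ± 0.10 at day 14. Mrpl47 fell by 0.99 ± 0.12 at day 3 and 0.45 ± 0.12 at day 14. Mrpl44, which carries a fold of the ribonuclease III family, fell by 0.62 ± 0.09 at day 7 (adjusted p = 9.97e-05). Mrpl23 fell by 0.58 ± 0.07 at day 7.

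The central protuberance bridges to the small subunit and contacts transfer RNA. Of 9 genes for its proteins 7 were lower at day 1, 7 at day 7 and 4 at day 14, and Mrpl52 was higher at days 3 and 5. Mrpl18 read 10.91 and 10.81 on day 0, 10.05 and 9.79 on day 1, 9.81 and 9.95 on day 3, 9.83 and 9.97 on day 5, 9.89 and 9.88 on day 7, 10.08 and 9.94 on day 10 and 10.20 and 10.21 on day 14. Its arrays dropped by day 1 and stayed on a plateau to day 7, with differences of -0.94 ± 0.10 at day 1, -0.97 ± 0.10 at day 7 and -0.65 ± 0.10 at day 14 (adjusted p = 0.000267). Mrpl55 had a similar course and one of the largest F statistics of the family, with differences of -0.96 ± 0.06 at day 1, -1.04 ± 0.06 at day 7 and -0.70 ± 0.06 at day 14 (adjusted p = 1.29e-07 at day 7). Mrpl58, a peptidyl-tRNA hydrolase that became part of the ribosome, fell by 0.54 ± 0.09 at day 1 and differed by -0.20 ± 0.09 at day 14 (adjusted p = 0.101).

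The deepest falls came at different days in different genes. Mrpl34 had its lowest arrays at day 1, where it was 2.32-fold lower, and log2 intensities of 11.18 and 11.17 on day 0, 9.98 and 9.94 on day 1, 10.26 and 10.46 on day 3, 10.39 and 10.50 on day 5, 10.35 and 10.39 on day 7, 10.64 and 10.50 on day 10 and 10.49 and 10.66 on day 14. Both day 1 arrays lay below every other array. The difference was -1.21 ± 0.09 at day 1 (adjusted p = 8.2e-07) and -0.60 ± 0.09 at day 14, and Mrpl34 rose by 0.40 between day 1 and day 3. Mrpl42, a protein found in mitochondria only, instead reached its lowest mean at day 3, 2.60-fold below day 0, and read 9.89 and 9.82 on day 0, 9.03 and 9.23 on day 1, 8.26 and 8.69 on day 3, 9.04 and 8.82 on day 5, 8.61 and 8.69 on day 7, 8.91 and 8.98 on day 10 and 8.98 and 9.35 on day 14. Its pools of day 3 differed from each other by more than those of day 7, and its lowest array was the right one of day 3. It fell by 1.38 ± 0.15 at day 3 (adjusted p = 1.46e-05) and by 0.69 ± 0.15 at day 14, with a rise of 0.69 from day 3 to day 14.

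Mrpl14, whose product lies at the face between the subunits and binds the assembly factor Malsu1, had the largest F statistic of the family. It read 10.63 and 10.60 on day 0, 9.55 and 9.50 on day 1, 9.98 and 9.84 on day 3, 9.65 and 9.68 on day 5, 9.35 and 9.36 on day 7, 9.72 and 9.59 on day 10 and 9.79 and 9.86 on day 14. The arrays fell at day 1, were partly higher at day 3 and were lowest at day 7, and none of them overlapped with day 0. It was 2.40-fold lower at day 7, a difference of -1.26 ± 0.07 (adjusted p = 8.16e-08), and the difference was -0.79 ± 0.07 at day 14. Malsu1 itself fell by 1.02 ± 0.06 at day 7 (adjusted p = 1.31e-07). Mrps28, a small subunit protein linked to human mitochondrial disease, was also lowest at day 7, with log2 intensities of 10.15 and 9.91 on day 0, 9.36 and 9.40 on day 1, 9.45 and 9.29 on day 3, 8.95 and 9.05 on day 5, 8.87 and 8.85 on day 7, 9.05 and 8.85 on day 10 and 9.22 and 9.45 on day 14. Its means of days 5, 7 and 10 were the lowest, and it fell by 1.17 ± 0.11 at day 7 and 0.69 ± 0.11 at day 14 (adjusted p = 0.000407). Mrpl51 fell by 1.09 ± 0.08 at day 7, Mrpl30 by 0.85 ± 0.07 and Mrpl2, whose bacterial counterpart lies near the catalytic centre, by 0.82 ± 0.07. Mrpl3, also close to that centre, fell by 0.42 ± 0.10 at day 3 and differed by -0.20 ± 0.10 at day 14 (adjusted p = 0.113).

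Among small subunit genes, Mrps12 encodes a protein of the decoding centre and Mrps5 one at the messenger RNA entry. Mrps12 fell by 0.32 at day 1, was not called at day 3 (-0.07 ± 0.07, adjusted p = 0.509) and was lower again at day 7 (-0.46 ± 0.07). Mrps5 fell at each day, by 0.65 at day 1 and 0.47 at day 14. Mrps21 read 12.07 and 12.04 on day 0, 11.15 and 11.04 on day 1, 11.19 and 11.32 on day 3, 11.34 and 11.31 on day 5, 11.34 and 11.53 on day 7, 11.48 and 11.75 on day 10 and 11.55 and 11.95 on day 14. Its day 1 pools were the lowest and the left pool of day 14 came close to day 0, with a difference of -0.95 ± 0.13 at day 1 (adjusted p = 9.01e-05) and of -0.30 ± 0.13 at day 14 (adjusted p = 0.0882). Mrps23 had a like course, with -0.79 ± 0.08 at day 1 and -0.19 ± 0.08 at day 14 (adjusted p = 0.0647).

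Further named genes with Mrps symbols varied in how long they stayed low. Mrps27, which has the repeats of RNA-binding pentatricopeptide proteins, was lower at 5 days but not at day 3 (adjusted p = 0.123). Mrps33 fell by 0.64 ± 0.10 at day 1 and 0.36 ± 0.10 at day 14. Mrps34 was lower up to day 7, where it fell by 0.65 ± 0.12, and Mrps17 was lower at days 1 and 3 only by this test. Mrps22 fell by 0.36 ± 0.10 at day 3 and was called at 3 of 6 days, while its F test over the days was not called (adjusted p = 0.0905). Mrps30 was called lower from day 5 on, with -0.31 ± 0.12 at day 5 and -0.46 ± 0.12 at day 14. Mrps36 read 9.48 and 9.52 on day 0, 8.36 and 8.65 on day 1, 8.10 and 8.44 on day 3, 8.76 and 8.54 on day 5, 8.33 and 8.36 on day 7, 8.76 and 8.81 on day 10 and 8.70 and 8.88 on day 14, with both pools of every later day below day 0 and the lowest mean at day 3, a difference of -1.23 ± 0.13 (adjusted p = 9.44e-06). In human patients, variants in some of the members' counterparts, among them MRPL3, MRPL12, MRPL44, MRPS22 and MRPS34, cause defects of the respiratory chain. Of a list of 12 such genes, which may be incomplete, 11 were lower at day 1 and 7 at day 14. Over all genes the shares lower at these days were 34.7% and 20.7%.

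The remaining 39 members, which the rule for named genes did not pick, were mostly lower as well. At day 1, 35 of the 39 were lower, with differences from -0.743 (Mrpl37) to -0.107 (Mrpl24). At day 7, 32 were lower, with Mrpl35 the lowest at -0.949 and Mrpl39 the highest at -0.028. At day 14, 25 were lower, between -0.633 in Mrpl46 and 0.061 in Mrpl39, and none of the 39 was called higher at any day against day 0.

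A few genes had no call against day 0. Mrpl17, Mrpl20, Mrpl24, Mrpl40 and Mrps18c were called at none of the 6 days, and they are named because the count is small. In each of them both day 1 arrays still lay below both day 0 arrays, as in 50.3% of all genes. The lack of a call therefore does not show that they did not fall. Mrpl40, of the central protuberance, read 11.47 and 11.43 on day 0, 11.25 and 11.39 on day 1, 11.53 and 11.65 on day 3, 11.60 and 11.62 on day 5, 11.42 and 11.38 on day 7, 11.43 and 11.34 on day 10 and 11.38 and 11.41 on day 14. Its arrays straddled the day 0 values, and its largest difference was 0.16 ± 0.07 at day 5 (adjusted p = 0.0771). Mrpl20, whose bacterial counterpart binds early in assembly, differed by -0.23 ± 0.10 at day 1 and 0.20 ± 0.10 at day 3 (adjusted p = 0.113), and its rise of 0.43 from day 1 to day 3 was called.

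Mrpl52 was the only member called higher at days 3 and 5. Log2 intensity was 10.24 and 10.20 on day 0, 10.37 and 10.29 on day 1, 10.52 and 10.69 on day 3, 10.49 and 10.57 on day 5, 10.31 and 10.44 on day 7, 10.40 and 10.38 on day 10 and 10.01 and 10.12 on day 14. The pools of days 3 and 5 were the highest and lay above both day 0 pools, and those of day 14 were the lowest. It rose by 0.39 ± 0.08 at day 3 (adjusted p = 0.00213) and 0.31 ± 0.08 at day 5 (adjusted p = 0.00695), and from day 3 to day 14 it fell by 0.54 ± 0.08 (adjusted p = 0.000359). With equal array medians the call at day 5 was lost (0.191, adjusted p = 0.0534), and with quantile normalization 2 members were higher at day 3 and 2 at day 5.

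The Mrps18 genes are 3 paralogues of 1 bacterial gene. Mrps18a, of the large subunit, read 10.77 and 10.81 on day 0, 10.22 and 10.30 on day 1, 10.05 and 10.21 on day 3, 10.26 and 10.10 on day 5, 10.02 and 9.86 on day 7, 10.24 and 10.05 on day 10 and 10.06 and 10.18 on day 14. It dropped at day 1 and stayed below day 0 on every later array, with differences of -0.52 ± 0.10 at day 1 and -0.84 ± 0.10 at day 7 (adjusted p = 1.87e-05). Mrps18b, of the small subunit, read 11.22 and 11.37 on day 0, 11.53 and 11.60 on day 1, 11.07 and 11.17 on day 3, 10.85 and 10.84 on day 5, 10.66 and 10.66 on day 7, 10.57 and 10.63 on day 10 and 10.57 and 10.62 on day 14. It was highest on both pools of day 1 and fell from there to a plateau from day 7 on. Against day 0 it was 0.27 ± 0.07 higher at day 1 (adjusted p = 0.00853), and it fell by 0.45 ± 0.07 at day 5 and 0.70 ± 0.07 at day 14 (adjusted p = 1.85e-05). The rise at day 1 lost its call without the day 0 right array (0.197, adjusted p = 0.0765), without the day 1 left array (0.237, adjusted p = 0.0566) and in a fit of only the arrays of those 2 days (0.271, adjusted p = 0.0667). Mrps18c, also of the small subunit, read 9.62 and 9.65 on day 0, 9.49 and 9.37 on day 1, 9.78 and 9.69 on day 3, 9.71 and 9.58 on day 5, 9.62 and 9.46 on day 7, 9.54 and 9.36 on day 10 and 9.33 and 9.46 on day 14. Its arrays crossed the day 0 level, highest at day 3, and no day was called, with a difference of -0.24 ± 0.09 at day 14 (adjusted p = 0.0591).

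**Figure D3:**
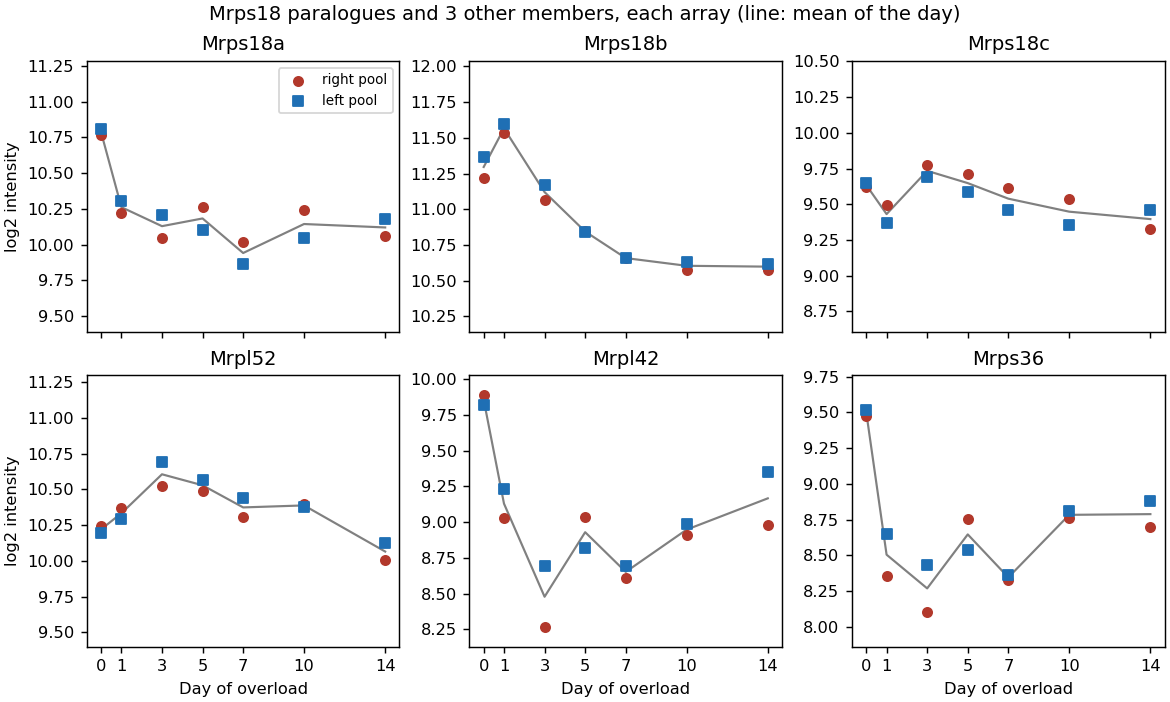
Log2 intensity (vertical axis) by day of overload (horizontal axis) for the Mrps18 paralogues and for Mrpl52, Mrpl42 and Mrps36; circles are right pools, squares left pools and the line joins day means, and all panels span the same range in log2 units. Mrps18b peaks at day 1 and ends at -0.70 from day 0, Mrps18c stays near its day 0 level, Mrpl52 peaks at day 3, and Mrpl42 and Mrps36 are lowest at day 3.

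The upstream sequences of Mrpl52 and of the Mrps18 paralogues are shown. Mrpl52 was called higher at days 3 and 5, and Mrps18a was called lower at all 6 days and Mrps18c at none. These sequences are given because transcription of many nuclear genes for mitochondrial proteins depends on ETS-family factors, Nrf1 and Yy1 bound close to the start site. Each is the 250 bases before the transcription start in RefSeq on build GRCm38.p6, read 5′ to 3′ in the direction of the gene, and capitals mark matches on either strand to CCGGAAG (ETS core), GCGCATG (Nrf1 core), AAGATGG (Yy1 core), CACGTG (E-box, bound by Myc) or AAGGTCA (core for estrogen-related receptors). Mrpl52 lies at chr14:54426659-54426908 on the plus strand, Mrps18a at chr17:46110754-46111003 on the plus strand, Mrps18b at chr17:35916441-35916690 on the minus strand and Mrps18c at chr5:100798509-100798758 on the plus strand.
Mrpl52: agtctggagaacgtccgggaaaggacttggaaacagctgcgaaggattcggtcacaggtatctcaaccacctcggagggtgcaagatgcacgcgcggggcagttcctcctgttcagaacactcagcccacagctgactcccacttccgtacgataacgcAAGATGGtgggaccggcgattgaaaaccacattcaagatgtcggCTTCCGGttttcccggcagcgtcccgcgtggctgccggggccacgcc
Mrps18a: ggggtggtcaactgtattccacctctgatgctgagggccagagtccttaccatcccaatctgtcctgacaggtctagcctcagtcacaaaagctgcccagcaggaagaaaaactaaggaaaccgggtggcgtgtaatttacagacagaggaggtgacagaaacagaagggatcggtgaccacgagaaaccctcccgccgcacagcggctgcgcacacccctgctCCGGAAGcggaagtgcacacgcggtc
Mrps18b: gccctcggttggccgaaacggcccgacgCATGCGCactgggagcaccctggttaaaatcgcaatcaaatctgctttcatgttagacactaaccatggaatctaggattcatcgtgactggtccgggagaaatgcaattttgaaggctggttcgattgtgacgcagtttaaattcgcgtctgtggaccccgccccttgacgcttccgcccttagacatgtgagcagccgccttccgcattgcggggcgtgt
Mrps18c: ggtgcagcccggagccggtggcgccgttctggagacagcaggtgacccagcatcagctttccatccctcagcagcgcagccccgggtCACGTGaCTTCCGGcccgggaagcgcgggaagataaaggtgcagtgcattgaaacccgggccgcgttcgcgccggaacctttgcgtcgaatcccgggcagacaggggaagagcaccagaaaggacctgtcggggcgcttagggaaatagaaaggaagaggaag
Mrpl52 and Mrps18a held an ETS match close to the start and Mrpl52 a Yy1 match further upstream, Mrps18c an ETS match next to an E-box and Mrps18b an Nrf1 match far upstream. Downstream of the start, within 50 bases, Mrpl52 had a further ETS match, Mrps18a a Yy1 match and Mrps18b an ETS match and an Nrf1 match.

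Over the family, 68 of the 77 members had an entry in the RefSeq promoter table, and windows of 300 bases (250 before to 50 after the start) were searched on both strands. The ETS core was in 25 of 68 members (36.8%), against 13.6% of the measured genes with an entry and 9.93% of all 27025 genes in the table. The Yy1 core was in 19.1% of members against 7.28% of both measured genes and all genes. The Nrf1 core was in 11.8% of members against 5.78% of measured genes and 4.41% of all genes. The E-box and the receptor core were in 7.35% and 5.88% of members, against 9.50% and 4.48% of measured genes and 8.09% and 5.38% of all genes. Cytosolic ribosomal protein genes held the ETS core in 38.1% and respiratory chain genes in 25.8%. Members with and without an ETS match had median differences at day 7 of -0.409 (25 genes) and -0.582 (43 genes). With and without the Nrf1 core the medians were -0.242 (8 genes) and -0.548 (60 genes), and with and without the Yy1 core -0.586 (13 genes) and -0.465 (55 genes). For the E-box they were -0.325 (5 genes) and -0.471 (63 genes), and for the receptor core -0.678 (4 genes) and -0.464 (64 genes). These are descriptions with no test. A match states only that the letters are present.

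Regulators of these genes did not move as 1 group. Ppargc1a, which encodes the coactivator PGC-1 alpha of mitochondrial biogenesis, read 11.24 and 11.16 on day 0, 10.05 and 9.82 on day 1, 8.09 and 8.37 on day 3, 9.20 and 8.64 on day 5, 8.90 and 8.90 on day 7, 10.03 and 9.71 on day 10 and 10.50 and 10.65 on day 14. Its day 3 arrays were the lowest and all later arrays lay below day 0, with differences of -2.97 ± 0.17 at day 3 (adjusted p = 9.64e-08) and -0.63 ± 0.17 at day 14 (adjusted p = 0.0126). Ppargc1b fell by 1.26 at day 1 and Esrra, the estrogen-related receptor that PGC-1 alpha partners with, by 1.04 at day 1 and 0.84 at day 14. Gabpb1, a subunit of GA-binding protein, was 1.05 higher at day 1 and 0.43 at day 14, whereas its partner Gabpa, which holds the ETS domain, was called at no day against day 0. Pprc1, a coactivator related to PGC-1, was 1.25 higher at day 1 and Nrf1 0.54 higher. Nrf1 was also called higher at days 3, 5 and 7. Its call at day 3 (0.35, adjusted p = 0.0115) was lost with equal array medians (0.24, adjusted p = 0.0744), as was that at day 7 (adjusted p = 0.239). With quantile normalization the calls of Nrf1 at days 3, 5 and 7 were all lost (adjusted p = 0.101, 0.118 and 0.647). Yy1 was called at no day against day 0 on the deposited scale. It was called lower at day 14 with equal array medians (-0.268, adjusted p = 0.014) and with quantile normalization (-0.200, adjusted p = 0.0334). Gabpa was called higher at day 1 with equal array medians (0.220, adjusted p = 0.0374). With quantile normalization Gabpa was called lower at days 3, 5 and 10 (adjusted p = 0.0165, 0.0264 and 0.0234). Myc, a driver of ribosome production in the cytosol, rose by 3.86 ± 0.09 at day 1 and 1.18 ± 0.09 at day 14 (adjusted p = 2.92e-10 at day 1).

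Most genes that build or serve the mitochondrial ribosome were lower as well, with a few higher at day 1. The 4 further mitoribosome proteins measured under other symbols, Dap3, Ptcd3, Chchd1 and Gadd45gip1, were all lower at day 1 and day 7, and Dap3, a small subunit protein that binds GTP, fell by 0.42 ± 0.07 at day 1 and 0.40 ± 0.07 at day 14. Of 31 genes for ribosome assembly and ribosomal RNA modification 23 were lower at day 1, 23 at day 3 and 20 at day 14. At day 1, 2 of the 31 were higher, the larger by 0.907, and none was higher at days 3 and 14, though quantile normalization gave 1 at day 3. The largest falls at day 3 were those of Tfb1m, a methyltransferase of the small ribosomal RNA (-0.90), Malsu1 (-0.77) and Eral1, a GTPase that chaperones that RNA (-0.72). Of 15 translation factors 11 were lower at day 3 and 8 at day 14, led by Taco1, an activator of cytochrome oxidase subunit translation, with -1.46 ± 0.12 at day 3. The elongation factor Gfm1 fell by 1.07 at day 7. Of 19 genes for charging mitochondrial transfer RNA 12 were lower at day 3 and 8 at day 14, with Qrsl1 the lowest of them at day 3 (-1.17). The count at day 14 was 13 with equal array medians and 15 with quantile normalization, and at day 3 it was 17 under both. Of 23 genes for the upkeep and expression of mitochondrial DNA 16 were lower at day 3, among them the transcription factor Tfb2m (-1.04), and 3 were higher at day 1 and 1 at day 7. With quantile normalization 1 was higher at day 1, and none was at day 7 under either of these scalings.

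Genes of the cytosolic ribosome were higher, not lower, up to day 10. Of 53 genes for cytosolic ribosomal proteins 20, 42, 47, 44, 33 and 15 were higher on days 1, 3, 5, 7, 10 and 14, and 1 was lower at day 1 and 0 at the other days. With equal array medians 29, 22 and 6 were higher on days 7, 10 and 14, and 2, 1 and 4 were lower on days 3, 7 and 14. Their median difference was 0.365 at day 3 and 0.070 at day 14, the latter changing sign to -0.021 with equal array medians. Rps12 rose by 1.08 ± 0.08 at day 3. Genes for respiratory chain subunits, which include the partners of the proteins made on the mitochondrial ribosome, moved in the same direction as the members. Of these 81 genes 76, 76, 78 and 71 were lower on days 1, 3, 7 and 14, with median differences of -0.706, -0.978, -0.983 and -0.460. Ndufs1, a core subunit of complex I, fell by 1.79 ± 0.09 at day 3, and Cox6a1 and Cox8a were the 2 subunits higher at day 3. The difference between lists was not tested.

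**Figure D4:**
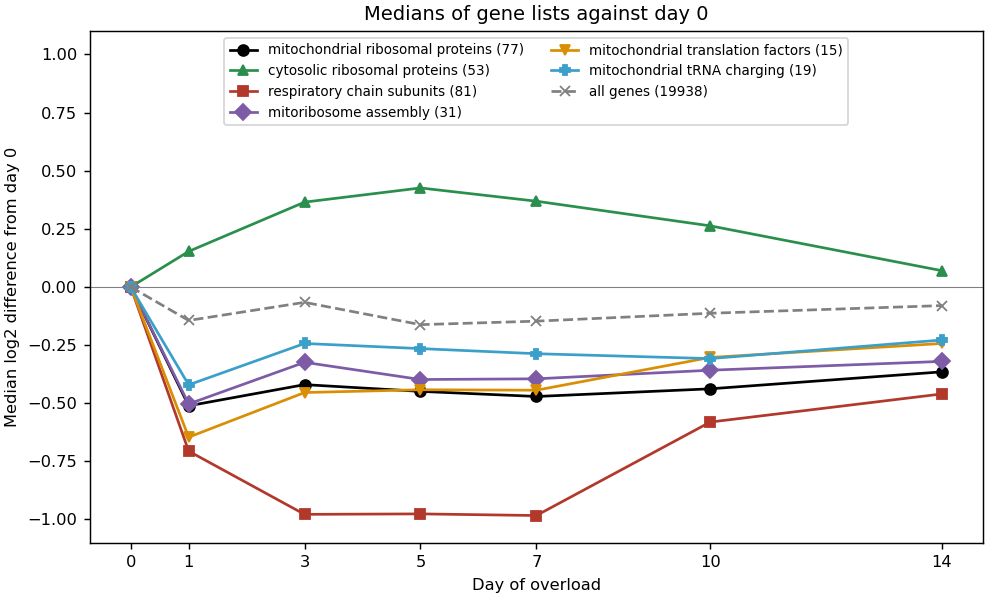
Median log2 difference from day 0 (vertical axis) by day of overload (horizontal axis) for 6 gene lists and for all genes, with the number of genes in brackets; medians carry no test. The mitochondrial ribosomal proteins lie between -0.511 and -0.365 from day 1 to day 14, the respiratory chain subunits go down to -0.983 at day 7 and are at -0.460 at day 14, and the cytosolic ribosomal proteins lie above 0, which turns to -0.021 at day 14 with equal array medians.

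Between consecutive days fewer members moved. From day 1 to day 3, 22 members rose and 5 fell, against 21.5% of all genes higher and 13.2% lower. The largest rises besides Mrpl20 were Mrps27 (0.43), Mrpl34 (0.40) and Mrpl10 (0.40), and the falls were led by Mrpl42 (-0.65), Mrpl47 (-0.53) and Mrpl50 (-0.47). This balance hangs on the scaling of the arrays, since with equal array medians 5 rose and 13 fell, and 7 to 14 rose when the day 1 left array or either day 3 array was left out. Calls lost in this way were those of Mrpl42 (-0.438, adjusted p = 0.0708) and Mrpl47 (-0.395, adjusted p = 0.0614) without the day 3 right array, Mrpl34 (0.301, adjusted p = 0.0535) without the day 3 left array and Mrps27 (0.310, adjusted p = 0.0644) without the day 1 left array. The mean of both Mrpl47 probe sets was not called either (-0.194, adjusted p = 0.109). From day 3 to day 5, 2 rose and 2 fell, where 6.41% and 4.74% of all genes did. Leaving out the day 3 right array or either day 5 array left 0 rises and 0 falls, leaving out the day 3 left array gave 4 rises and 0 falls, and leaving out any array of day 10 or 14 gave 1 of each. No member was called by limma from day 5 to day 7 or from day 10 to day 14, where 0.487% and 2.56% of all genes fell and 0.667% and 2.11% rose, and at an unadjusted p under 0.05 these steps had 10 lower with 0 higher and 1 lower with 15 higher.

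From day 7 to day 10, 5 of 77 members rose, Mrps36 (0.44), Mrpl14 (0.30), Mrpl51 (0.29), Mrps24 (0.28) and Mrps23 (0.26), and none fell, where 6.95% of all genes rose and 9.52% fell. The share that rose over this step is near that of all genes and is no result about the members. At an unadjusted p under 0.05, 16 rose and 2 fell, and without either day 7 array or the day 10 right array no rise was called. Of the 81 respiratory chain genes 65 rose over the same step, with a median of 0.395 against 0.079 for the members. From day 3 to day 14, 16 members rose and 6 fell, where 17.6% of all genes rose and 16.3% fell. The share of members that rose is near that of all genes and is no result about them. Mrpl42 (0.69), Mrpl47 (0.54), Mrps36 (0.52) and Mrps21 (0.50) rose most, and Mrpl52, Mrps18b (-0.52), Mrpl20 (-0.37) and Mrps18c (-0.34) fell most. Leaving out the day 3 right array gave 3 rises and 3 falls, leaving out the day 14 left array gave 3 rises, and leaving out the day 14 right array gave 2 falls. The rises of Mrpl47, Mrps36 and Mrps21 lost their call without the day 3 right array (adjusted p = 0.0516, 0.0902 and 0.0858) and without the day 14 left array (adjusted p = 0.0512, 0.0732 and 0.120). The falls of Mrpl20 and Mrps18c lost theirs without the day 14 right array (adjusted p = 0.0760 and 0.106), and also without the left and the right array of day 3, respectively (adjusted p = 0.0732 and 0.0945).

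For 8 members a second probe set of the same symbol gave a second reading. At day 7 the brighter and the other probe set differed from day 0 by -0.582 and -0.585 for Mrpl23, -1.086 and -1.076 for Mrpl51, -0.563 and -0.522 for Mrps33, -1.153 and -1.180 for Mrps36 and -0.616 and -0.613 for Mrps5. Mrpl47 gave -0.717 and -0.803, and Mrpl41 gave -0.234 and -0.205. Mrpl27 gave -0.214, which was called, and -0.138, which was not (adjusted p = 0.0123 and 0.365). Pairs differed more at other days. Mrpl47 gave -0.458 and -0.759 at day 1 and -0.987 and -0.618 at day 3, so that only the brighter probe set was lowest at day 3. Mrpl41 gave -0.196, which was not called, and -0.402, which was, at day 5 (adjusted p = 0.0760 and 0.000681). Mrpl27 gave -0.309, which was called, and -0.070, which was not, at day 10 (adjusted p = 0.00187 and 0.666). No pair was called in opposite directions.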

How the data were processed

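The authors deposited 1 linear intensity value per probe set and array, made with Partek per the submitters' processing notes, with no version given; the summarising and normalization are not given in the sources used here. The design text gives 100 ng and the labelling protocol 250 ng of total RNA. Log2 of each deposited intensity was taken with no further scaling. Of 35556 probe sets 21789 had 1 gene symbol, 1621 several and 12146 were not listed in the annotation. The brightest probe set stood for a gene, which gave 19938 genes, 77 of them members (85 probe sets).

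Day means were fitted in limma 3.58.1 (R 4.3.3) with all 14 arrays (7 residual degrees of freedom), with Benjamini-Hochberg adjustment over all genes. Fold changes are differences of log2 intensity. On arrays the number of samples limits the precision. On simulated data for day 3 against day 0, 50 of 19938 genes were changed at each fold size. There, 78% of genes changed 1.5-fold and 8% of those changed 1.2-fold were recovered. In the measured data 23.4% of all genes were lower and 24.2% higher at day 3. Recovery with that many changed genes was not tested. Members, gene lists and tests were chosen with earlier results of these data known, and the pattern for respiratory chain genes was corrected after values were seen. Named by rule were, up to 4 each way for each day, the largest called changes against day 0, from day 1 to 3 and day 3 to 14, the 8 largest F, the 4 brightest and 4 dimmest, the Mrps18 paralogues, members with 2 probe sets and a panel of genes. Python 3.11.15 with pandas 2.3.3 and matplotlib 3.10.9 made tables and figures. Over genes, right minus left differences correlated between days at -0.583 to 0.438 (median -0.0624, 21 pairs of days). Since this compares different days, it cannot tell whether the right and left pools of 1 day share animals. The fit treated them as separate pools.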

Additional observations from a re-analysis of the deposited data

Results flagged for a closer look

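Mrps18b differed between days of overload in the direction of its change against day 0: the difference was 0.27 at day 1 and -0.70 at day 14, and the direct comparison of day 14 with day 1 gave -0.969 ± 0.07 (limma, adjusted p = 1.05e-06). Both pools of day 14 lay below both pools of day 1, and 16.2% of all genes were called lower over this interval. The rise of Mrps18b at day 1 against day 0 lost its call in a limma fit of only those 2 days (adjusted p = 0.0667). It was also smaller without the day 0 right array (0.197) or the day 1 left array (0.237), and its call was lost there too. The comparison of day 14 with day 1 was added after the values were seen. Mrps18a differed by -0.14 ± 0.10 (adjusted p = 0.281) and Mrps18c by -0.04 ± 0.09 (adjusted p = 0.798) over the same interval.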

How the results depend on the processing

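The members' medians against day 0 were negative, and more members were lower than higher at every day, under each alternative run. For equal array medians, the median over the 19938 genes, not over all probe sets, was made the same on every array. This moved the median difference of all genes by -0.117 at day 5 and -0.126 at day 7. The members' medians at days 3, 5, 7, 10 and 14 became -0.528, -0.566, -0.597, -0.535 and -0.455 with equal medians and -0.53, -0.543, -0.631, -0.539 and -0.442 with quantile normalization. With the day 0 left and day 1 right arrays left out together the medians were -0.564 at day 1 and -0.522 at day 7, and 13 members rose from day 1 to day 3. A further requirement of 1.5-fold left 29, 24, 24, 33, 23 and 14 members lower at days 1, 3, 5, 7, 10 and 14, 0 higher at days 1, 3 and 5, 1 lower and 0 higher from day 1 to 3, 0 and 0 from day 3 to 5, 0 higher from day 7 to 10, and 0 lower and 1 higher from day 3 to 14. With quantile normalization 2 were higher at days 3 and 5, 8 fell from day 1 to 3, 5 fell and 1 rose from day 3 to 5, 1 fell from day 5 to 7, 14 rose from day 7 to 10 and 1 rose and 1 fell from day 10 to 14. With equal medians 0 were higher at day 5, 13 fell and 5 rose from day 1 to 3, 1 fell and 1 rose from day 3 to 5 and 9 rose from day 7 to 10. Fits of only the 2 days compared gave 0 higher at day 1, 9 rises from day 1 to 3, 0 rises and 0 falls from day 3 to 5, 3 rises from day 7 to 10 and 10 from day 3 to 14. With the lowest tercile of genes by mean intensity removed 4 fell from day 3 to 5, 1 from day 5 to 7, 1 fell and 9 rose from day 7 to 10, and 1 fell and 3 rose from day 10 to 14. A trended variance prior gave 2 higher at day 5, 4 falls from day 3 to 5, 1 from day 5 to 7, 1 from day 7 to 10, and 1 fall and 3 rises from day 10 to 14. Averaging probe sets gave 3 rises from day 7 to 10 and 1 fall from day 10 to 14; all probe sets, a robust prior and log2(intensity + 16) also gave 1 fall from day 10 to 14, and the last 4 falls from day 3 to 5. With side as a replicate block 1 member fell from day 3 to 5, and the block moved no other count of calls by over 1.5 times. The cause of these shifts was not tested.

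Leaving out 1 array at a time, where the lone pool of a day is taken to vary like the others, gave 59 to 66 members lower at day 1, 47 to 57 at day 3, 50 to 61 at day 5, 54 to 64 at day 7, 49 to 60 at day 10 and 38 to 50 at day 14. Medians ranged from -0.553 to -0.491, -0.443 to -0.397, -0.478 to -0.395, -0.522 to -0.471, -0.461 to -0.403 and -0.427 to -0.304. Higher were 0 to 1 at day 1, 1 at day 3, 1 to 2 at day 5 and 0 at days 7, 10 and 14. From day 1 to 3, 2 to 5 fell and 7 to 22 rose; from day 3 to 5, 0 to 3 and 0 to 4; from day 7 to 10, 0 and 0 to 5; from day 3 to 14, 2 to 6 and 3 to 15. By the F test 60 to 70 members changed. Of 43 named results 0 reversed, and 18 lost the call in at least 1 rerun. In all, 36 of 1118 reruns lost the call, 17 through the 1.5-fold rule and 16 through a left-out array. The named results were picked as the largest called changes in these same data, so the absence of reversals adds little. Most reruns without 1 array dropped an array of neither day compared, which leaves the difference itself unchanged.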
